A study of Mus musculus with 12 samples.

Results

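The genes described here encode the proteins that copy DNA and the enzymes that supply deoxynucleotides for it. They were 45 genes chosen by name: the origin recognition complex and its loading factors, the MCM helicase, the factors that start it, the DNA polymerases, the clamp and its loader, single-strand binding proteins, enzymes of Okazaki fragment joining and enzymes of nucleotide supply. A gene was read from the array row, a transcript cluster, that was annotated to its symbol alone. Of the 45 genes, 43 had such a row, among 30142 genes named this way on the array. Orc5 shared its row with Gm15421, and Mcm7 shared its row with Mir25 and Mir93, so neither was measured here. Of the 43 genes, 38 lay above array background on all 12 arrays, and Orc1, Gins2, Rfc3, Rpa3 and Fen1 did so on 6 to 11 arrays. Background on an array was set from its 23 antigenomic control probe sets, as their 95th percentile, and 30 of the 43 genes also lay above the median of the negative controls on every array. Cdc6 was among the genes that did not.

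Replication begins when the origin recognition complex, with CDC6 and CDT1, loads the MCM helicase onto DNA in G1. CDC45 and the GINS complex then activate the helicase, primase and the polymerases copy both strands, and the PCNA clamp, loaded by RFC, holds the polymerases on the template. Ribonucleotide reductase and thymidylate enzymes provide the building blocks, many of these genes are E2F targets that peak around S phase, and maturing neutrophils leave the cell cycle.

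The study measured total RNA (250 ng) from mouse myeloid cells on Affymetrix Mouse Transcriptome arrays, with 2 arrays in each of 6 groups. All cells were HoxB8-ER cells on a C57BL/6 background, that is, bone marrow progenitors immortalised by transduction with HOXB8 fused to the ligand-binding domain of the estrogen receptor. With 0.5 µM estradiol they stay dividing and promyelocyte-like, and they become neutrophils over 6 days without it. The groups were undifferentiated wild-type cells, undifferentiated Ezh2-/- cells, neutrophils of both genotypes, and wild-type neutrophils treated with either GSK343 or vehicle. GSK343 inhibits EZH2, the histone methyltransferase of Polycomb repressive complex 2. The inhibitor's dose is not settled, since it is 0.5 µM over 9 days on the sample labels but 1 µM in the series text. The Ezh2-/- cells are called Ezh2-null, and wild-type cells came from littermates. Nothing in the labels tells the number of lines, how Ezh2 was deleted or whether the 2 arrays of a group came from separate cultures. Cell line and genotype cannot be told apart, and the p-values cover array-to-array spread alone, which may be technical.

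The median cluster signal was 4.54 to 4.65 for the 8 genotype arrays but 3.88 to 3.96 for the 4 drug arrays, so levels are compared only within each of these sets. Arrays of 1 group correlated at Pearson r of 0.984 to 0.995 over all clusters. This did not part the drug groups. GSK343 array 2 correlated at 0.995 with each vehicle array and at 0.993 with GSK343 array 1. Ezh2 was 2.34 log2 units lower in Ezh2-null than in wild-type undifferentiated cells (SE 0.155, limma adjusted p = 5.5e-05). In neutrophils it read 8.74 and 9.02 on the Ezh2-null arrays against 8.31 and 8.34 on the wild-type arrays, so the transcript was not lower there, and these cells are called neutrophils labelled Ezh2-null. Ezh2 itself changed by −3.28 log2 units on wild-type differentiation, from a mean of 11.61 to 8.33 (limma adjusted p = 1.23e-06). Over the same step in Ezh2-null cells it changed by −0.39 and was not called (adjusted p = 0.113). All 12 neutrophil markers checked rose on differentiation in both genotypes. The 2 arrays of Ezh2-null undifferentiated cells stood apart for replication genes. Array 1 was higher than array 2 for 35 of the 43 genes, by a median of 0.52 log2 units against 0.01 over all clusters, and the widest gap was 1.40 for Fen1. Among wild-type neutrophils, array 2 was higher than array 1 for 37 genes.

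The promoters of 5 genes are printed because they span the responses described in the following paragraphs, from Mcm5, Mcm6, Cdc6 and Rrm2, which differed strongly between groups, to Orc3, which changed little. Each is the 250 bases before the RefSeq start of the gene, 5′ to 3′ on the gene's own strand, in build GRCm38.p6. Capitals mark E2F words, which are TTTCCCGC, TTTCGCGC, TTTGCCGC or TTTGGCGC on either strand, and CCAAT on either strand. Where a forward and a reverse E2F word overlap, as in Mcm5 and Mcm6, the capitals run through both.
Mcm5 promoter, chr8:75109259-75109508, plus strand: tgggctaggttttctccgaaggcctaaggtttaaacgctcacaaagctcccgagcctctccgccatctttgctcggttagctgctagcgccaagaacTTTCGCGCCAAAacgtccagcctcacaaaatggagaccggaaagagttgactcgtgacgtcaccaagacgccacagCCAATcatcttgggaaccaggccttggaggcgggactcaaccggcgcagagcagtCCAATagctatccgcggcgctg
Mcm6 promoter, chr1:128359706-128359955, minus strand: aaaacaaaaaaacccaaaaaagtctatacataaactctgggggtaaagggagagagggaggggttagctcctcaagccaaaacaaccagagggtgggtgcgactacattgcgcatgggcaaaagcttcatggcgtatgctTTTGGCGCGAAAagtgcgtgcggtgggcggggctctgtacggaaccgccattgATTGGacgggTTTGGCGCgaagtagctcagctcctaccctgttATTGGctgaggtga
Cdc6 promoter, chr11:98907901-98908150, plus strand: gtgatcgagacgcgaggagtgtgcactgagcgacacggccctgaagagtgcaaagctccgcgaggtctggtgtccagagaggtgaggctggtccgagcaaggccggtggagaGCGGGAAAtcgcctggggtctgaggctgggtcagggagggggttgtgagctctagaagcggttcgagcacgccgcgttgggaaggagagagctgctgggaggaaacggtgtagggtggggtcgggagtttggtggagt
Rrm2 promoter, chr12:24708004-24708253, plus strand: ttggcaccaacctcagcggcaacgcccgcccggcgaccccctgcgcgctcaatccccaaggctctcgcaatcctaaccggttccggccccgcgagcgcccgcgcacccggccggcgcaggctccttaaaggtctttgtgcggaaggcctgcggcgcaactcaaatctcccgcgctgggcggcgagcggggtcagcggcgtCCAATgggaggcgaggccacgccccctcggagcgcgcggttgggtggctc
Orc3 promoter, chr4:34614943-34615192, minus strand: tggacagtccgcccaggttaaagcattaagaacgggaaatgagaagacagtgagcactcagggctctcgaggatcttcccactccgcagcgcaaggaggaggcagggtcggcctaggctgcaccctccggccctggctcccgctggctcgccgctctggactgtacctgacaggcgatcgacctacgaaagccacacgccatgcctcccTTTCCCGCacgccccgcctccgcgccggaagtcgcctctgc

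Mcm5 held a forward E2F word 153 bases before the start with a reverse word beginning at 149. Mcm6 held 3 words, beginning 110, 106 and 47 bases before the start, and Cdc6 held 1 at 138 on the reverse strand. Orc3 held 1 at 41 and Rrm2 held none in this window. RefSeq promoters, 300 bases from 250 before to 50 after the start, matched 36 of the 43 genes by symbol. Some genes have more than 1 start, so these 36 genes have 43 promoters. An E2F word was in 14 of these 43 promoters (32.6%), each of a different gene, and in 2.26% of the 32851 promoters in the table. CCAAT was in 53.5% of the member promoters against 37.4% of all promoters, and the GC box GGGCGG in 69.8% against 35.7%. The word TTTGAA of the cell cycle homology region, on either strand, was in 11.6% against 17.9%. TATAAA was in 6.98% against 13.6%. A word match is a description of the sequence and not a binding site.

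**Figure D1:**
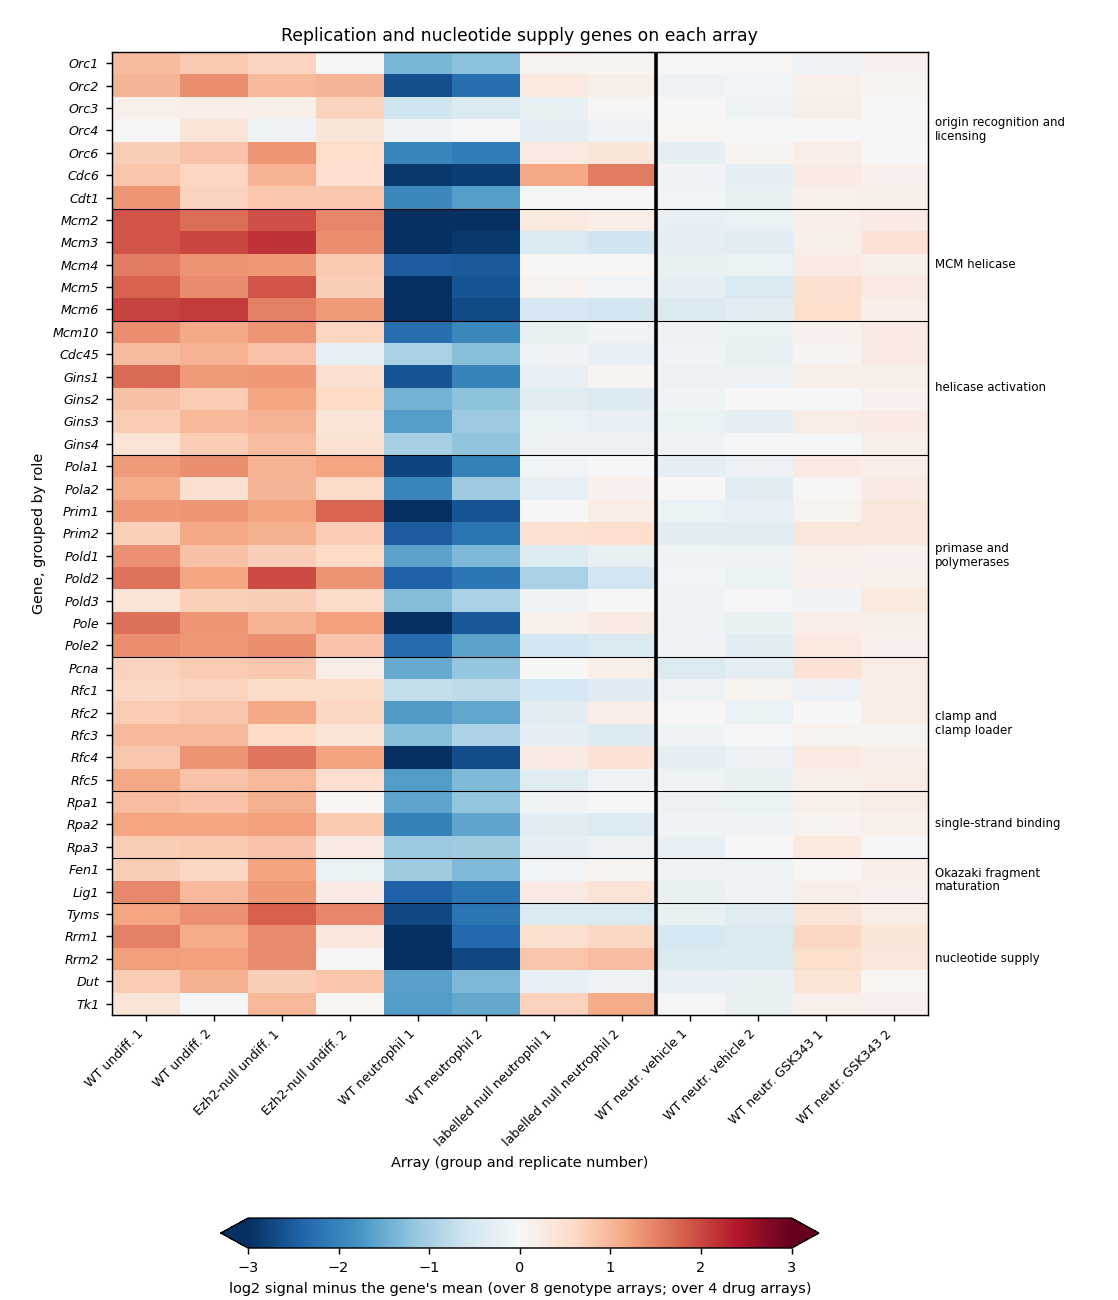
Signal of the 43 replication and nucleotide supply genes (rows, grouped by role) on each of the 12 arrays (columns), as log2 signal minus the gene's mean over the 8 genotype arrays or, right of the vertical line, over the 4 drug arrays. Wild-type neutrophils are the low columns for 42 of 43 genes, neutrophils labelled Ezh2-null are higher than these, and values past the end of the colour scale take its end colour.

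The first comparison asks how these genes change as wild-type progenitors become neutrophils. Expression fell in nearly every gene: 42 of 43 were called lower in wild-type neutrophils and none was called higher. Of the 43, 41 were called and fell by at least 2-fold, as did 8.58% of all clusters. The median difference was −2.84 log2 units, against 0.03 over all clusters. Of all 65956 clusters 12.2% were called lower and 13% higher, and among the 27499 clusters above background on 2 arrays or more 27% were called lower. Orc4 was the gene not called. In bulk samples, fewer cells of a type and less RNA per cell cannot be told apart.

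Helicase subunits fell furthest by role, with a median of −4.99. Mcm2, which encodes a subunit of the ring that unwinds the template (cluster TC0600002690.mm.1), read 13.63 and 13.42 in wild-type undifferentiated cells and 7.72 and 8.27 in wild-type neutrophils. The pairs lay far apart, a 46.4-fold drop (log2 difference −5.53, SE 0.204, limma adjusted p = 3.8e-07). Mcm3 fell 35.5-fold, Mcm6 31.8-fold, Mcm5 22.7-fold and Mcm4 15.4-fold, so all 5 measured subunits passed the test. Among polymerase genes, all 9 fell, with a median of −3.30. Pole, the catalytic subunit of the leading-strand polymerase, dropped from 11.14 and 10.81 to 6.36 and 6.94. Prim1, the catalytic subunit of primase, decreased by 4.23 log2 units (SE 0.227, adjusted p = 2.43e-06).

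Nucleotide supply genes all fell, 5 of 5, with a median of −3.72. Rrm2, the regulatory subunit of ribonucleotide reductase that is made in S phase (cluster TC1200000203.mm.1), read 12.68 and 12.66 in undifferentiated cells against 8.43 and 8.69 in neutrophils, a 17.3-fold drop (SE 0.347, adjusted p = 2.7e-05). Rrm1, the large subunit, fell 16.6-fold, and Tyms, thymidylate synthase, 13.2-fold. Dut, the dUTPase, dropped by 2.39 log2 units. Tk1, thymidine kinase of the salvage route, dropped by 1.77.

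The clamp gene Pcna fell from 14.05 and 14.13 to 11.85 and 12.19, a 4.19-fold drop. Of the loader subunits, Rfc4 fell by 3.90 log2 units and Rfc1, the large subunit, fell by 1.39. Among the helicase activators, Gins1 dropped by 3.79 log2 units and Gins4 by 1.69, with Mcm10, which helps the helicase start, at −3.35 and Cdc45 at −2.12. Rpa1, Rpa2 and Rpa3, the single-strand binding trimer, dropped by 2.27, 2.97 and 1.86. Lig1, the ligase that joins Okazaki fragments, decreased by 3.52, and Fen1, the flap nuclease that trims them, decreased by 1.88.

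Origin recognition genes were uneven. Orc2 read 11.75 and 12.13 before and 8.09 and 8.46 after differentiation, a 12.7-fold drop, and Orc6 fell 7.18-fold. Orc1 fell at least 3.42-fold, a bound because both neutrophil arrays lay at or under background. Orc3 read 11.93 and 11.97 against 11.19 and 11.35, a difference of −0.68 (SE 0.182, adjusted p = 0.0223). That call was lost when any 1 of the 4 arrays was left out. Orc4 (cluster TC0200003492.mm.1) read 9.93 and 10.34 against 9.80 and 9.90, so its pairs nearly touched (difference −0.29, SE 0.182, adjusted p = 0.336). The loading factors Cdc6 (cluster TC1100001586.mm.1) and Cdt1 fell 12.2-fold and 6.95-fold. In wild-type neutrophils Cdc6 lay under the median of the negative controls, so the size of its fall is less certain.

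**Figure D2:**
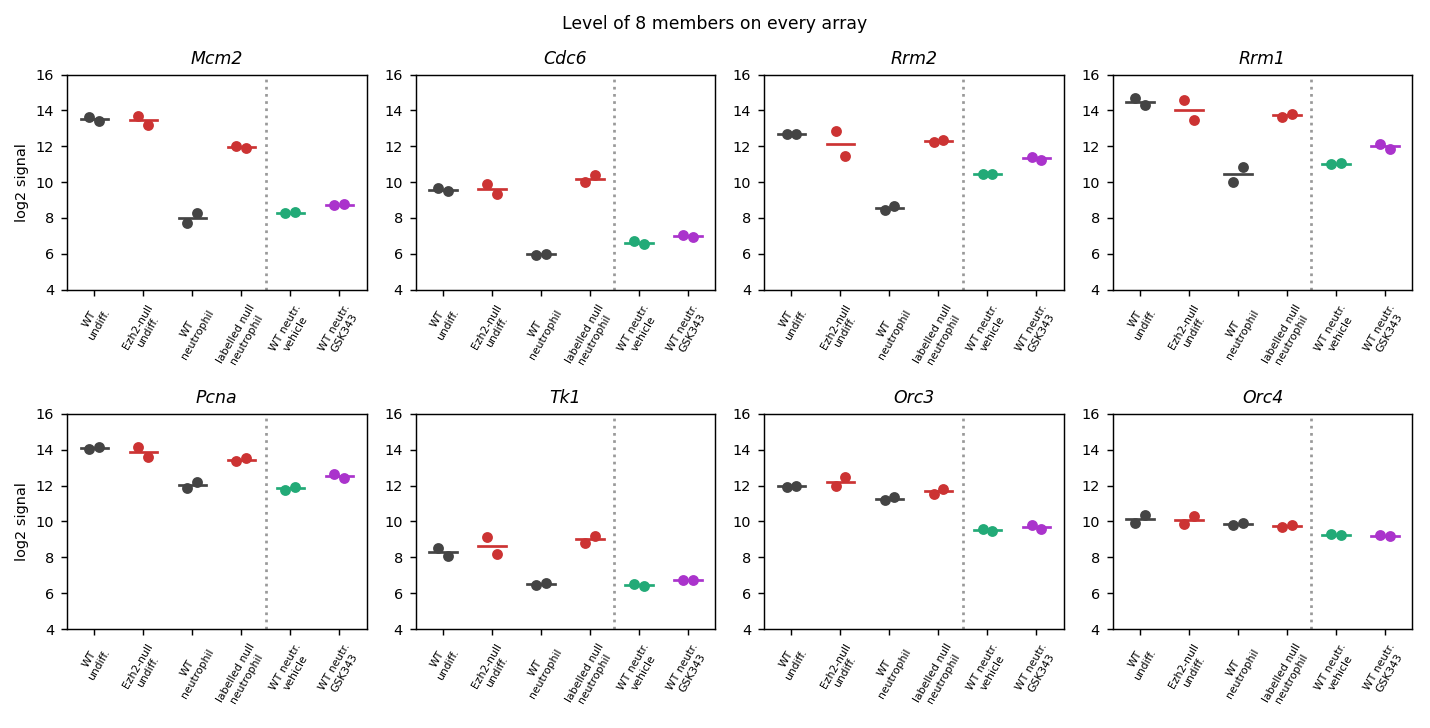
Log2 signal of Mcm2, Cdc6, Rrm2, Rrm1, Pcna, Tk1, Orc3 and Orc4 in the 6 groups: each point is 1 array, each line the mean of 2, and the dotted line parts the genotype arrays from the drug arrays. Mcm2 lies at 7.72 and 8.27 in wild-type neutrophils against 12.04 and 11.93 in neutrophils labelled Ezh2-null, while Orc4 lies at 9.80 and 9.90 against 9.67 and 9.79.

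Ezh2-null cells were compared over the same step. Of the 43 genes, 28 were called lower and none higher. Differences lay below 0 in 40 of the 43, with a median of −0.92. Among all clusters 10.7% were called lower and 11.7% higher, and among the brighter clusters 22.7% were called lower. The 5 measured MCM genes fell, with differences from −2.31 for Mcm3 to −1.01 for Mcm4. Mcm5 was the least certain of them (difference −1.29, SE 0.345, adjusted p = 0.0247). Its adjusted p was 0.118 without array 1 of the Ezh2-null undifferentiated cells, 0.0793 or 0.117 without either array of the neutrophils labelled Ezh2-null, and 0.0674 on the 8 genotype arrays alone. On the arrays of the contrast alone Mcm4 also lost its call (adjusted p = 0.0606). Without array 1 of the undifferentiated cells 22 genes were called lower, and Cdt1, Mcm5, Gins1, Gins3, Pold3, Rfc2 and Rpa3 lost the call. Pold2, a small subunit of polymerase delta, had the largest decrease, from 12.28 and 11.65 to 9.35 and 9.73 (difference −2.42, SE 0.236, adjusted p = 0.000101). Tyms dropped by 2.07.

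Role medians closest to 0 were those of nucleotide supply at −0.32, Okazaki fragment joining at −0.48 and licensing at −0.54. Cdc6 read 9.87 and 9.35 in Ezh2-null undifferentiated cells and 9.99 and 10.39 in neutrophils labelled Ezh2-null. Both neutrophil arrays lay above both undifferentiated arrays, but the gene was not called (difference 0.58, SE 0.194, adjusted p = 0.0621). Rrm2 read 12.83 and 11.46 before against 12.25 and 12.35 after (difference 0.15, adjusted p = 0.834), Tk1 differed by 0.37, and Rrm1 by −0.32. For Rrm2 the undifferentiated arrays enclosed the neutrophil arrays. Without array 1 of the Ezh2-null undifferentiated cells, which was the higher of the pair for these genes, Cdc6, Rrm2 and Tk1 were called higher, each by 0.84. Without array 2, the Rrm2 difference was −0.53, and 36 genes were called lower in place of 28.

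The decrease was tested directly for a difference between genotypes, as the genotype effect in neutrophils minus that in undifferentiated cells. This equals the difference between both differentiation steps, so it shares all 8 arrays with them. It was above 0 in 42 of 43 genes and called in 30, with a median of 1.65, where 2.77% of all clusters were called higher and 1.65% lower. Rrm2 had the largest value, 4.27 log2 units (SE 0.491, adjusted p = 0.00171), followed by Cdc6 at 4.18 and Mcm2 at 4.07. The 13 genes not called included Orc3, Orc4, Rfc1, Cdc45, Fen1, Pold2 and Gins2, Gins3 and Gins4. Calls for Pole2, Pcna, Rfc2, Rfc5 and Tk1 were lost when 1 array or another was left out. On the 8 genotype arrays alone 24 genes were called, without these 5 and Rfc3. Without array 1 of the Ezh2-null undifferentiated cells 38 genes were called.

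**Figure D3:**
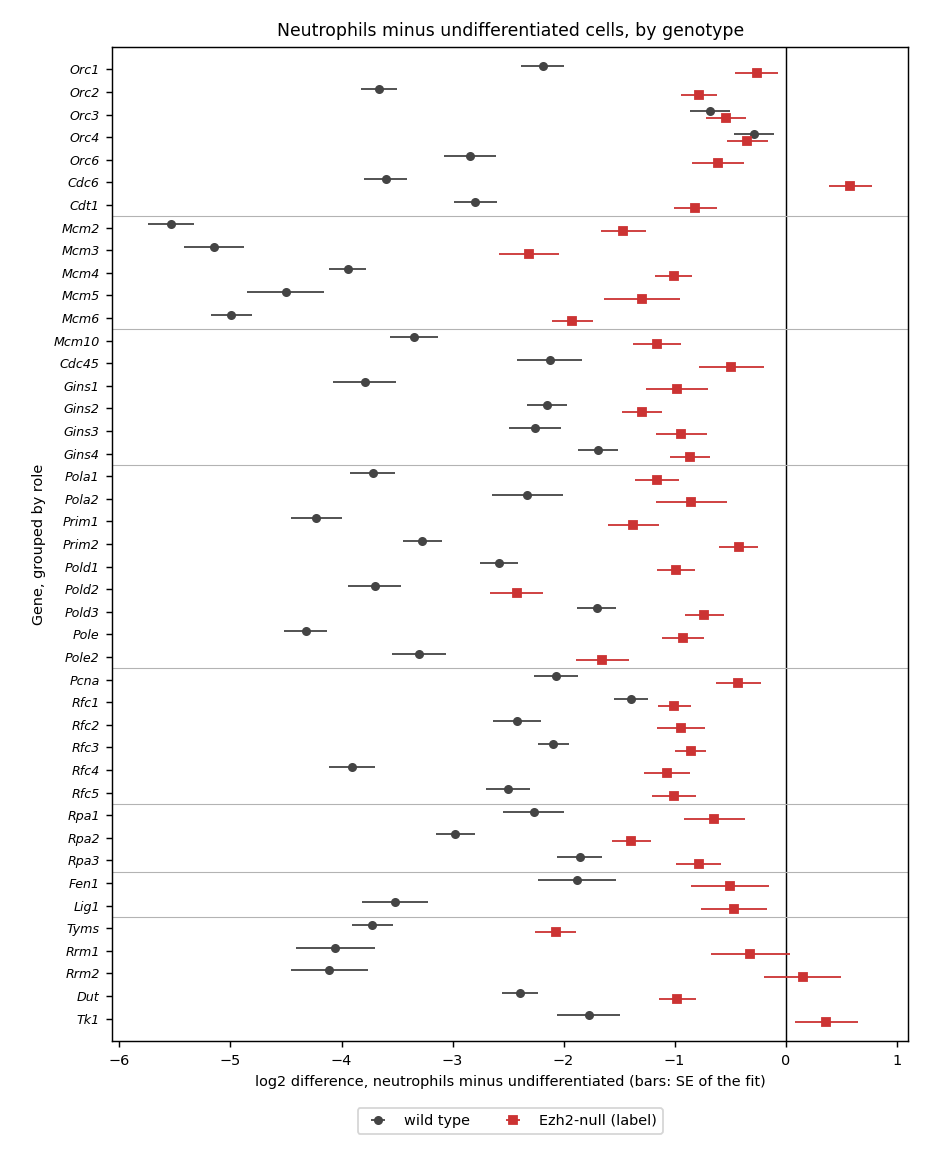
Difference between neutrophils and undifferentiated cells for each of the 43 genes on the log2 scale, in wild-type cells (circles) and Ezh2-null cells (squares), with the standard error of the limma fit over 12 arrays as bars. Wild-type values run from −5.53 for Mcm2 to −0.29 for Orc4, and 42 of the 43 lie left of the Ezh2-null value of the same gene.

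The genotypes were next compared at each stage. In undifferentiated cells no replication gene was called in either direction, where 1.65% of all clusters were called higher and 1.34% lower. Differences ran from −0.68 for Cdc45 to 0.36 for Tyms, with a median of −0.18, and 31 of the 43 were below 0. Mcm2, for example, read 13.63 and 13.42 in wild-type and 13.68 and 13.21 in Ezh2-null cells, so the pairs overlapped. The absence of calls depended on array 1 of the Ezh2-null cells: without it Cdc45, Rrm2, Lig1, Fen1, Orc1, Rpa1 and Mcm4 were called lower, from −1.23 for Cdc45 to −0.65 for Mcm4. Without array 2 the median turned to 0.09.

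In neutrophils the same genes differed widely. Of 43 genes, 38 were called higher in neutrophils labelled Ezh2-null than in wild-type neutrophils, and none was called lower. By at least 2-fold, 34 were higher, against 4.56% of all clusters. The median difference was 1.58, against −0.03 over all clusters. Over the array 6.75% of clusters were called higher and 5.06% lower, and 14.4% of the brighter clusters were called higher. The wild-type neutrophil arrays also entered the differentiation result, so the 38 genes that both fell on wild-type differentiation and were higher here were read in part from the same arrays.

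Cdc6 showed the largest difference. It read 9.99 and 10.39 in neutrophils labelled Ezh2-null and 5.93 and 6.00 in wild-type neutrophils, 18.7-fold higher (log2 difference 4.22, SE 0.194, limma adjusted p = 3.11e-06). Both wild-type readings lay above background (5.51 and 5.47) but under the negative control medians (6.37 and 6.60), so the size of the fold is less certain. The Cdc6 level in neutrophils labelled Ezh2-null lay above both wild-type undifferentiated arrays, at 9.66 and 9.48. Cdt1, the other loading factor, read 8.79 and 8.88 against 6.90 and 7.19, a difference of 1.79. Orc2 was 6.39-fold and Orc6 5.14-fold higher, and Orc1 at least 1.99-fold.

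All 5 MCM genes were higher, with a median of 2.67. Mcm2 read 12.04 and 11.93 against 7.72 and 8.27, 15.9-fold higher (SE 0.204, adjusted p = 6.49e-06). Mcm5 read 12.06 and 11.89 against 8.72 and 9.38, a difference of 2.92, and Mcm6 11.99 and 11.94 against 9.31 and 9.81, a difference of 2.40. Unlike Cdc6, these genes stayed below the undifferentiated cells on every array, where the lowest reading was 13.21 for Mcm2, 12.69 for Mcm5 and 13.77 for Mcm6.

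The 9 polymerase genes were all higher, from 1.06 for Pold3, an accessory subunit of polymerase delta, to 3.04 for Pole. Prim1 and Prim2, both primase subunits, were 8.12-fold and 7.10-fold higher, and Pola1, the catalytic subunit of polymerase alpha, 5.08-fold. Of the clamp and loader genes, 5 of 6 were higher. Rfc4 read 11.20 and 11.39 against 7.96 and 8.29, 8.99-fold higher, and Pcna read 13.35 and 13.54 against 11.85 and 12.19, 2.67-fold higher. Rfc1, also a loader subunit, read 10.32 and 10.46 against 10.14 and 10.06 and was not called (difference 0.29, adjusted p = 0.314).

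All 5 nucleotide supply genes were higher, with a median of 2.50. Rrm2 read 12.25 and 12.35 against 8.43 and 8.69, 13.4-fold higher (SE 0.347, adjusted p = 0.000185). Rrm1 read 13.64 and 13.80 against 10.03 and 10.84, 9.74-fold higher, and Tk1 read 8.81 and 9.21 against 6.44 and 6.59, 5.65-fold higher. In each case both arrays of one group lay above both of the other. The wild-type Tk1 readings lay close to the negative control medians (6.37 and 6.60), so the size of its fold is less certain. Tyms was 4.03-fold and Dut 2.43-fold higher.

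Of the remaining genes, Lig1 was 6.13-fold higher, and the 3 single-strand binding genes differed by 0.86 for Rpa3 to 1.41 for Rpa2. Among the helicase activators, Gins1 differed by 2.21 and Mcm10 by 1.93, and Gins2, Gins3 and Gins4 by 0.92, 1.16 and 0.92. The genes not called were Cdc45 (0.95, adjusted p = 0.0718), Fen1 (1.20, adjusted p = 0.0604), Orc3 (0.41, adjusted p = 0.225), Rfc1 and Orc4. Orc4 had the sole difference below 0, at −0.12. The calls for Gins2, Gins3, Gins4, Pola2, Rfc3, Rpa1 and Rpa3 were lost when 1 of the 4 neutrophil arrays or another was left out, and the count then lay between 32 and 36.

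Genes with and without an E2F word in the promoter were set side by side without a test. With a word, 13 of 14 were called higher in neutrophils labelled Ezh2-null, with a median of 1.61. Without one, 18 of 22 were called, with a median of 1.50. Cdc6, with 1 word, and Rrm2, with none in the window shown, were among the genes with the largest differences, and Orc3, with 1 word, was not called. In wild-type differentiation the medians were −3.05 with a word and −2.67 without.

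Other genes of the same processes were counted from lists, where higher and lower mean called so. Over all clusters 6.75% were called higher in neutrophils labelled Ezh2-null and 5.06% lower. Of the brighter clusters, 14.4% were called higher. Of 33 other fork and checkpoint genes, 25 were higher and none lower in neutrophils labelled Ezh2-null. Tipin, of the fork protection complex, differed by 3.34, Dtl, the adaptor that targets CDT1 for degradation, by 3.21, and Ticrr, which helps load CDC45, by 3.20. Of 8 genes of chromatin assembly at the fork, 7 were higher, led by Uhrf1, which recognises hemimethylated DNA, at 1.79, Nasp, a histone chaperone, at 1.61, and Asf1a, another, at 1.47. Nucleotide metabolism outside the genes above was mixed, with 11 of 24 higher and 1 lower. The folate cycle genes Mthfd1 and Shmt2 differed by 3.41 and 2.68, and Ctps, CTP synthase, by 2.39. Both folate genes had fallen on wild-type differentiation, by 4.20 and 6.28.

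Regulators of the G1 to S transition also differed. Of 17 E2F, pocket protein and related genes, 8 were called higher and none lower, where 6.75% of all clusters and 14.4% of the brighter ones were called higher. On wild-type differentiation 11 of the 17 were called lower and 2 higher. There 12.2% of all clusters and 27% of the brighter ones were called lower, and 13% of all clusters higher. Among the E2F genes, E2f3 (1.10), E2f6 (1.30) and E2f8, a repressor (1.80), were called, and E2f1 (0.31), E2f2 (0.76), E2f4 (1.43), E2f5 (0.15) and E2f7 (0.53) were not. E2f2 rose on wild-type differentiation by 3.87, opposite to the replication genes. The largest differences in the list were Tfdp2, an E2F partner, at 2.80, Mybl2, a cell cycle transcription factor, at 2.50 and E2f8. Of 12 genes of cyclins, kinases and related regulators, 8 were higher and none lower, led by Myc at 3.79, the D-type cyclin Ccnd2 at 3.70 and the S-phase cyclin Ccna2 at 3.66. Ccna2 read 13.40 and 13.76 in neutrophils labelled Ezh2-null, above both wild-type undifferentiated arrays at 13.32 and 13.29.

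Markers of other cells moved with this comparison, in which 6.75% of all clusters were called higher and 5.06% lower. Of 11 mast cell and basophil markers, 10 were higher in neutrophils labelled Ezh2-null. Their summed level was 19.39 to 19.42 there and 12.32 to 13.69 in wild-type neutrophils, where 7 or 8 of the 11 lay at or under background. It was 18.81 to 18.90 in wild-type and 18.00 to 18.33 in Ezh2-null undifferentiated cells. Most of the sum in neutrophils labelled Ezh2-null came from Cpa3, a mast cell carboxypeptidase. Cpa3 read 19.09 and 19.12 against 7.25 and 8.02, and 18.75 and 18.86 in wild-type undifferentiated cells. The mean log2 signal of the 11 markers was 10.86 to 11.46 in neutrophils labelled Ezh2-null and 6.01 to 6.06 in wild-type neutrophils. In undifferentiated cells this mean was lower than in neutrophils labelled Ezh2-null, at 7.92 to 8.04 in wild-type and 7.52 to 7.93 in Ezh2-null cells. On the undifferentiated arrays 5 or 6 of the 11 lay at or under background, against 1 in neutrophils labelled Ezh2-null. All 11 erythroid markers were higher, with summed levels of 17.65 to 17.86 against 10.11 to 10.38. Of the 11, 9 lay at or under background in wild-type neutrophils and on every undifferentiated array of both genotypes. The mean log2 signal of the 11 erythroid markers was 11.18 to 11.30 in neutrophils labelled Ezh2-null. In undifferentiated cells it was 6.36 to 6.43 for wild type and 6.28 to 6.64 for Ezh2-null. Of 10 progenitor markers, 5 were higher and 0 lower, with a median of 1.58. Kit had the largest difference, 5.35, and 3 markers lay below 0, the lowest at −1.37. The summed level of the 10 was 13.50 to 13.95 against 10.77 to 10.79, and 18.89 to 18.98 in wild-type undifferentiated cells. Of 12 neutrophil markers, 4 were called lower and 11 lay below 0, with a median of −0.81. None of the 12 lay at or under background in either group. Monocyte and macrophage markers were called lower in 6 of 10, and all 10 lay below 0, with a median of −1.76. The part of these cells in the replication gene result was not tested.

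GSK343 was compared with vehicle in wild-type neutrophils. No replication gene passed the limma test. The test called 1 of all 65956 clusters higher (0.00152%) and 0 lower, and at an unadjusted p under 0.05 it counted 2373 higher and 1590 lower. Differences were nevertheless above 0 in 42 of the 43 genes, with a median of 0.37 against 0.00 over all clusters, and Orc4 was the exception at −0.05. Both GSK343 arrays lay above both vehicle arrays in 37 genes, and 19.5% of all clusters and 26.5% of the brighter ones had that order. The largest difference was in Rrm1, which read 12.12 and 11.87 with GSK343 and 10.98 and 11.08 with vehicle, 1.95-fold (difference 0.96, SE 0.356, adjusted p = 0.72). Rrm2 read 11.41 and 11.23 against 10.44 and 10.44, a difference of 0.88.

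Differences of at least 0.5 log2 units were found in 8 genes, which were Mcm3, Mcm5, Mcm6, Pcna, Prim2, Rrm1, Rrm2 and Tyms. Mcm5 read 10.50 and 10.30 against 9.72 and 9.56, and Mcm6 read 11.02 and 10.69 against 10.04 and 10.17. Mcm6 had the lowest adjusted p of the 43 genes, 0.411, with a difference of 0.75 (SE 0.183). By role, the MCM genes had the highest median at 0.62 and the licensing genes the lowest at 0.21. Cdc6, first in the genotype comparison, differed by 0.38. Of the same 12 cyclin and kinase genes 11 lay above 0 and none was called, with Ccna2 highest at 1.13.

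Markers of other cells were read on the same arrays. All 10 progenitor markers lay above 0 with a median of 0.91 and none was called, and their summed level was 12.60 to 12.80 with GSK343 against 11.47 to 11.54 with vehicle. All 12 neutrophil markers lay below 0, with a median of −0.39, and none was called. Both GSK343 arrays lay below both vehicle arrays in 8 of the 12. The share of all clusters with that order is not given here, so this count cannot be weighed against it. Of 10 monocyte and macrophage markers, 8 lay above 0 with a median of 0.35 and none was called, and their summed level was 18.84 to 18.88 against 18.20 to 18.66. Of 11 mast cell and basophil markers, 10 lay above 0 with a median of 0.36, and 1 was called, Cpa3, which was higher by 2.99 (adjusted p = 0.0187). As given for the genotype comparison, Cpa3 was also high in wild-type undifferentiated cells. Of the erythroid markers, 9 of 11 lay at or under background on each of the 4 arrays. The part of these cells in the replication gene values was not tested.

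The effect of the genotype label and that of GSK343, which share no arrays, were tested against each other as a difference of differences. The genotype effect exceeded the GSK343 effect in 42 of 43 genes and was called so in 24, with a median of 1.38, where 1.97% of all clusters were called in that direction and 1.33% in the other. Cdc6 had the largest excess at 3.85 (SE 0.274, adjusted p = 0.000135), then Mcm2 at 3.55 and Rrm2 at 2.86. Pcna, at 0.74 (adjusted p = 0.269), and Dut, at 0.82 (adjusted p = 0.118), were among the 19 not called. The count rested on each array: it lay between 9 and 23 when 1 of the 8 neutrophil arrays was left out, lowest without array 2 of the vehicle group. Both array sets enter this value, so it assumes that a difference within one set is on the same scale as in the other.

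**Figure D4:**
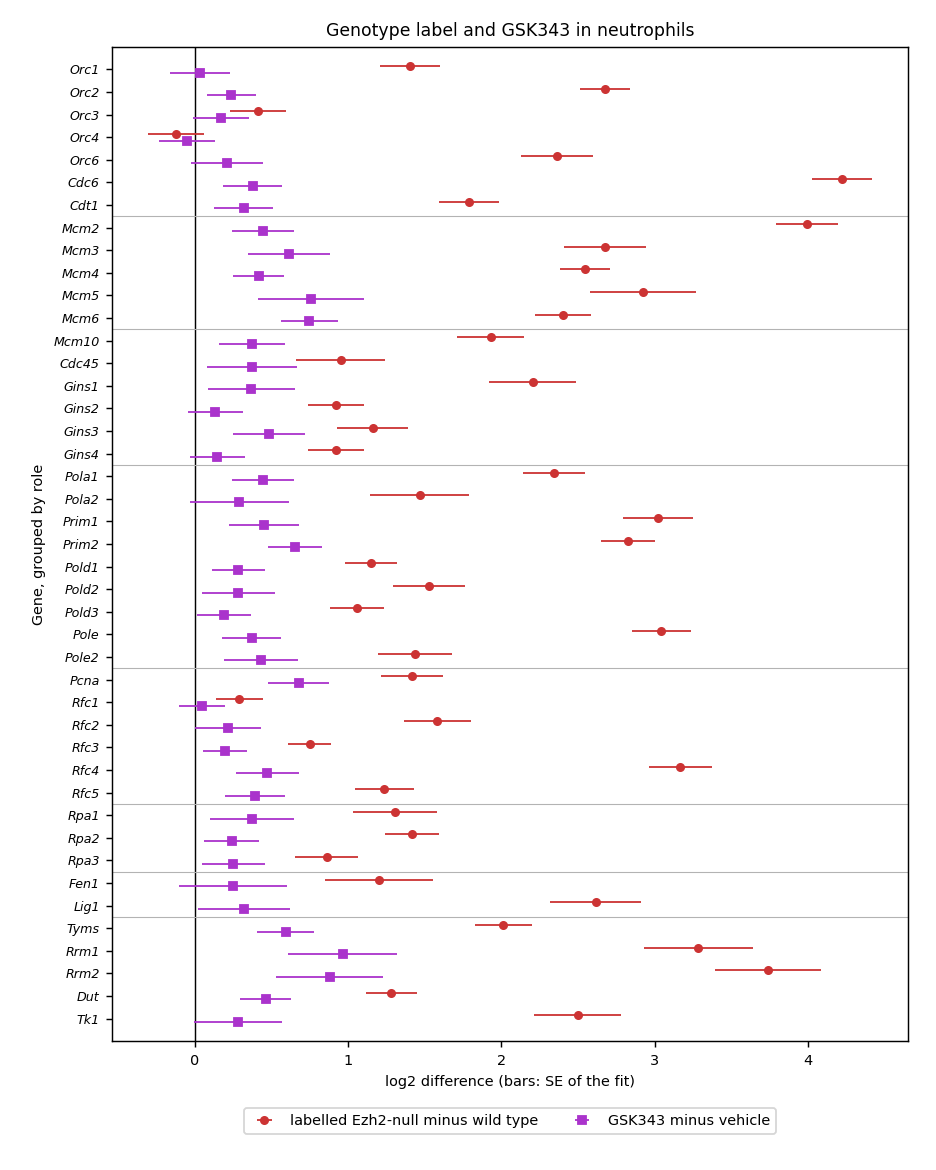
Difference in log2 signal for each of the 43 genes between neutrophils labelled Ezh2-null and wild-type neutrophils (circles) and between GSK343 and vehicle (squares), with the standard error of the limma fit as bars. Genotype values reach 4.22 for Cdc6, GSK343 values reach 0.96 for Rrm1, and Orc4 lies below 0 in both.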

How the data were processed

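Expression was measured on 12 arrays, 2 in each of 6 groups taken from the sample titles. The authors deposited 1 log2 signal for each transcript cluster, as the range of values shows. Per the submitters' processing notes, the authors used 2 programs, Transcriptome Analysis Console and Affymetrix Expression Console. The build, like their versions and the summarisation, was not given in the sources used here. The table held 72688 entries, and its 6732 control probe sets were left out of the tests. Of 65956 clusters, 30604 carried 1 gene symbol, 2146 several and 33206 none in the platform annotation, and 827 symbols were updated through a RefSeq table (GRCm38.p6).

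A single limma 3.58.1 model (lmFit, eBayes, R 4.3.3) with 6 group means covered all arrays, and p-values were adjusted over all clusters by the Benjamini-Hochberg method. A cluster was called at an adjusted p under 0.05. The script was tested on simulated data. A fold is written "at least" where both arrays of the dimmer group lay at or under background. It then compares the brighter mean with a dimmer mean in which any array below background was raised to it. Lists are described by counts and medians, with no test. A list's summed level is the log2 of its summed linear signals. Precision is limited by having 2 arrays a group. The model gives each gene 1 spread shared by all 6 groups, although the groups varied unequally. The median SD over the 43 genes ran from 0.07 in the vehicle group to 0.37 in Ezh2-null undifferentiated cells. A standard error therefore does not measure the spread of the compared groups alone.

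The genes, lists and tests were chosen with earlier results of these data known. Any of the 45 genes could be named. From each list of other genes, the 3 largest called differences for genotype in neutrophils and for wild-type differentiation could be named, with E2f1 to E2f8. The markers Cpa3 and Kit were named after their values were seen. Alternatives were a 2-fold minimum, fits on fewer arrays, further quantile normalization, median centring, no dim clusters, an intensity trend, the dimmest row of a gene, a replicate block and leaving out each array.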

Additional observations from a re-analysis of the deposited data

Results flagged for a closer look

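For 30 replication genes the effect of the genotype label differed between neutrophils and undifferentiated cells, by the limma test of the difference itself. The values are log2 differences of differences over 8 arrays, all above 0. They were 4.27 for Rrm2, 4.18 for Cdc6, 4.07 for Mcm2, 3.74 for Rrm1 and 3.40 for Pole. Mcm5 stood at 3.21, Mcm6 at 3.07, Lig1 at 3.05, Mcm4 at 2.94 and Orc2 at 2.89. Prim1 stood at 2.86, Prim2 at 2.85, Mcm3 at 2.84, Rfc4 at 2.83, Gins1 at 2.81 and Pola1 at 2.56. Intermediate values were found for Orc6 (2.23), Mcm10 (2.19), Tk1 (2.14), Cdt1 (1.98) and Orc1 (1.93). The smallest called values were 1.65 for Pole2, 1.65 for Tyms, 1.64 for Pcna, 1.6 for Pold1, 1.58 for Rpa2, 1.50 for Rfc5, 1.48 for Rfc2, 1.42 for Dut and 1.23 for Rfc3. The neutrophils labelled Ezh2-null did not have less Ezh2 transcript than wild-type neutrophils, so each direction rests on the label.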

How the results depend on the processing

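The direction of the median over the 43 genes held under all alternatives run for wild-type differentiation, genotype in neutrophils, GSK343 and the genotype by stage difference. Over the 43 genes and 7 contrasts, 3833 of 4085 recomputed values kept their side of the threshold, 204 lost the call, 47 gained one and 1 reversed. None of the 43 genes had more than 1 row, so the dimmest-row alternative repeated the main values and could not change a call. Its values are counted among those kept. The sign changed in 53 of the 4085, 35 of them for genotype in undifferentiated cells, and only the reversed one was called with either sign. For Ezh2-null differentiation, the 28 genes called lower became 16 with a 2-fold minimum and 18 on the arrays of the contrast alone. The 0 called higher became 1 (Cdc6) with dim clusters left out. Leaving out 1 array left an arm with a lone array, assumed to vary like the other groups. It then gave 0 to 3 genes called higher and 20 to 36 lower, and Rrm2 moved from 0.15 to 0.842 without Ezh2-null undifferentiated array 1 and reversed to −0.53 without array 2. For genotype in undifferentiated cells it gave 0 to 7 called lower and medians from −0.31 to 0.0932. For genotype in neutrophils the median ran from 1.45 to 1.91, for the genotype by stage difference from 1.53 to 2.13, and for genotype minus GSK343 from 1.26 to 1.61, with 9 to 23 genes called. The causes were not tested. With a replicate block, 42, 28, 0, 38 and 0 genes were called for wild-type and Ezh2-null differentiation, genotype at each stage and GSK343, 31 for the genotype by stage difference and 19 for genotype minus GSK343. Same-numbered arrays did not deviate together (correlations from −0.25 to 0.19), so the numbers were not taken as pairs. Crossed numbers, added after seeing the data and fitted on the arrays of the contrast, called 42 genes for wild-type differentiation and 0 for GSK343. Signal near background limits Orc1, Gins2, Rfc3, Rpa3 and Fen1. The wild-type neutrophil means of Cdc6 (5.97), Gins3 (6.01), Rpa2 (6.13), Mcm10 (6.17), Gins1 (6.31) and Pold1 (6.35) were also low. They lay under the negative control medians of these arrays, 6.37 and 6.60, so the sizes of differences from wild-type neutrophils are less certain for these genes. Tk1 and Pole each lay just under the median on 1 of these arrays, so the same limit holds for them.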
